A study of Mus musculus with 8 samples.

Results

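The 8 genes Lrrk2, Pink1, Park7, Uchl1, Vps35, Atp13a2, Dnajc6 and Fbxo7 were followed across the cell classes of the mouse cortex. They were taken by symbol from the 31053 genes counted, as mouse counterparts of genes mutated in inherited Parkinson disease, and all 8 were found. No measured value was used as a filter, but earlier results of these data were known when the genes were chosen. The counts came from single-nucleus RNA sequencing (snRNA-seq) of cortical nuclei from 8 naive C57BL6J mice aged 6 weeks, with 1 library per mouse. 4 mice were wild type (Wt) and 4 were Ifnar1-/-, with 2 females (F1, F2) and 2 males (M1, M2) in each genotype. The Ifnar1-/- mice lacked, in every cell of the body, a subunit of the receptor for type I interferons, and the study asked which transcripts of each cell class differ without it. Levels are given as CPM, the unique molecular identifiers (UMIs, 1 per captured RNA molecule) of a gene scaled to a common total of UMIs for each class in each library. Differences between groups are log2 fold changes from edgeR's quasi-likelihood test after TMM scaling, and p-values were adjusted over all genes of a fit by the Benjamini-Hochberg method, with 0.05 as the threshold. The spread between libraries is that between mice together with any difference in handling.

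The 8 proteins act in a few connected routes. LRRK2 is a kinase that phosphorylates Rab GTPases on vesicle membranes, VPS35 is the core subunit of the retromer, which returns cargo from endosomes, and DNAJC6 (auxilin) strips the clathrin coat from vesicles with the chaperone HSPA8. PINK1 is a kinase that builds up on damaged mitochondria and marks them for removal, PARK7 (DJ-1) protects cells against oxidative stress, and FBXO7 is an F-box protein that brings substrates to an SCF ubiquitin ligase and binds a proteasome regulator. UCHL1 is a ubiquitin C-terminal hydrolase, long used as a neuronal marker protein, and ATP13A2 is a P5-type ATPase that exports polyamines from lysosomes.

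The 8 libraries held 44063346 to 58423423 UMIs and 4313 to 8928 nuclei kept, with a median of 4775 (Ifnar1-/- F1) to 9813 (Ifnar1-/- F2) UMIs per nucleus, and the classes differed in depth too. Glutamatergic neurons (Glut, 26432 nuclei) had a median of 8854 UMIs per nucleus and GABAergic neurons (GABA, 6591 nuclei) had 6956, against 2055 in oligodendrocytes (7085 nuclei) and 1472 in microglia (4385 nuclei). Smaller classes were striatal projection neurons (SPN, 1570 nuclei), oligodendrocyte precursors (OPC, 452), newly formed oligodendrocytes (NFOL, 216) and astrocytes (162), and 5091 nuclei (9.78%) were given no name. Wt F1 was left out of every NFOL value, and Wt F2 and Ifnar1-/- M1 out of every astrocyte value, for holding fewer than 10 such nuclei. The microglia of Ifnar1-/- F1 numbered 155. Classes were rebuilt here by clustering without the 8 genes, and 326 of 51749 cell barcodes occurred in more than 1 library. The marker list of each class summed highest in that class, except that OPC markers were higher in NFOL (11525 CPM) than in OPC (7475). The striatal class is present although the tissue is labelled as cortex. The first principal component of the whole-library profiles held 72.0% of the variance and separated females from males, and the labels name no batch, so sex and any shared handling cannot be told apart. Ifnar1 itself was still counted in the knockout, at 19.9, 16.2, 17.5 and 18.7 CPM in Wt and 13.9, 14.5, 16.8 and 15.9 in Ifnar1-/- (log2 fold change -0.24, SE 0.11, adjusted p = 1.00). Which part of the gene is deleted is not given in the sources used here.

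The genes lie on 5 chromosomes of the mouse genome (GRCm38). Dnajc6 (chr4:101496648-101642799), Pink1 (chr4:138313409-138326307), Atp13a2 (chr4:140986873-141007330) and Park7 (chr4:150897133-150914437) are all on chromosome 4. Uchl1 lies at chr5:66676091-66687234, Vps35 at chr8:85260392-85299802, Fbxo7 at chr10:86021972-86051873 and Lrrk2 at chr15:91673175-91816120. Unspliced transcripts were counted, so introns contribute to all of these levels, and exons make up 4.04% of the span of Dnajc6 and 29.3% of that of Atp13a2. Levels of different genes are therefore not compared with each other. Uchl1 overlaps the antisense gene Uchl1os over 408 bases, Vps35 overlaps Orc6 over 171 bases and Fbxo7 overlaps A230060F14Rik over 358 bases, each on the opposite strand, and reads there are uncertain.

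Promoter sequence is shown for Fbxo7 and Lrrk2, the pair of members whose levels ran most opposite to each other over the classes and subtypes (Pearson r -0.784 on log2 levels, a description over 20 classes and subtypes that share libraries). The stretches are from RefSeq on GRCm38.p6, plus strand, 5′ to 3′, and lie before the transcription start. Capitals mark E-boxes (CANNTG, read on both strands), the sites of basic helix-loop-helix factors, a family that includes OLIG2 of the oligodendrocyte lineage and the NEUROD proteins of neurons.
Fbxo7, chr10:86021679-86021928: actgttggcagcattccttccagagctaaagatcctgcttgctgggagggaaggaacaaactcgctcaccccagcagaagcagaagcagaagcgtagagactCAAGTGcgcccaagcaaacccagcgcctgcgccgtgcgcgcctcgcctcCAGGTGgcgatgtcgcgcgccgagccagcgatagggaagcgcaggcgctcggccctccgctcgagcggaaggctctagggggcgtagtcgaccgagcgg
Lrrk2, chr15:91672974-91673174: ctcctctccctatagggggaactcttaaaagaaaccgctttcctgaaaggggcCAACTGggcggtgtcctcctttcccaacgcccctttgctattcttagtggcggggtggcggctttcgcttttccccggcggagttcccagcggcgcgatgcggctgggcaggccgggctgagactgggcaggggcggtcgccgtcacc
In windows of 250 bases before and 50 after each start, every member promoter searched except that of Uchl1 held an E-box. Of the 8 genes 7 have an entry, 2 of them with 2 starts each. Vps35 has no entry, so its promoter was not searched for any motif. An E-box was also present in 72.3% of all 32851 promoters, so it does not set the members apart.

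Because the study removes an interferon receptor, the 300-base windows (250 before and 50 after each start) were also searched for the core of the interferon-stimulated response element, a pair of TTTC runs with any 2 bases between them, and of the gamma-activated site, TTCNNNGAA, on both strands. The first was found in 1 of 9 windows, that of the second start of Fbxo7, 180 bases before that start, with the core in capitals here.
Fbxo7, chr10:86021964-86021993: agctccttgcTTTCGGTTTCttcccggggc
This stretch runs into the span of Fbxo7 given above, which begins at chr10:86021972, and the core lies within that span. The element occurred in 3.44% of all promoters. The gamma-activated core was in 0 of 9 member windows and in 8.3% of all promoters. A match is only a run of letters, and its absence says nothing of the factor.

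Lrrk2, the Rab kinase, was higher in neurons than in oligodendrocytes and microglia. It stood at 74.7 CPM in the lowest library, 93.2 at the median and 117 in the highest in Glut, at 35.2, 49.1 and 52.0 in GABA, and at 135, 164 and 191 in SPN. In oligodendrocytes the same 3 values were 1.24, 4.69 and 8.26, from 75 UMIs over all 8 libraries, and in microglia 2.74, 12.5 and 23.0, from 73 UMIs. Every library placed both glial classes below both neuron classes and SPN above them, with no overlap. Against neurons (the mean of the Glut and GABA coefficients), Lrrk2 was lower in oligodendrocytes (log2 fold change -3.72, SE 0.14, adjusted p = 2.66e-39) and in microglia (-2.72, SE 0.16, adjusted p = 2.17e-27). It was lower in GABA than in Glut (-1.13, SE 0.07, adjusted p = 3.14e-26) and higher in SPN than in Glut (0.69, SE 0.08, adjusted p = 8.05e-13). In descending order of level, astrocytes (62.6 ± 26.1, SD, n = 6) and GABA (46.3 ± 6.10, SD, n = 8) did not differ beyond their spread, OPC (32.9 ± 15.9) were below GABA (adjusted p = 0.0187) and above microglia (adjusted p = 0.000399), and the steps from microglia to NFOL (11.7 ± 7.74) and to oligodendrocytes did not pass the test.

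Vps35, the retromer core, was instead higher in microglia and oligodendrocytes than in Glut and GABA. Its lowest, median and highest levels were 76.2, 86.9 and 107 CPM in microglia and 54.2, 73.0 and 85.5 in oligodendrocytes, against 42.6, 50.1 and 58.0 in GABA and 37.8, 42.2 and 45.1 in Glut. Both glial classes were above both neuron classes in 8 of 8 libraries. The log2 fold change over neurons was 0.81 in microglia (SE 0.09, adjusted p = 4.29e-14) and 0.75 in oligodendrocytes (SE 0.07, adjusted p = 7.3e-17), and the step between these neighbours in the order did not pass (adjusted p = 0.591). OPC, NFOL, astrocytes, GABA, SPN and Glut followed at 60.4 to 41.8 on average, OPC below oligodendrocytes (adjusted p = 0.000839), and no step between neighbours after OPC passed. Vps35 did not pass the test between GABA and Glut (0.13, adjusted p = 0.063), although GABA was the higher in 8 of 8 libraries. It passed with library totals in place of TMM.

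Dnajc6, the clathrin uncoating factor, was found in oligodendrocytes at levels within the range of cortical neurons or near it. Its lowest, median and highest levels were 240.1, 280.4 and 295 CPM in Glut, 258, 290.0 and 313 in GABA and 236, 286 and 306 in oligodendrocytes, so the ranges overlapped. The difference between oligodendrocytes and neurons was 0.06 on the log2 scale (SE 0.07, 95% interval -0.07 to 0.19), and it was -0.13 with DESeq2 and -0.04 with library totals, so its sign depended on the scaling. GABA was above Glut in 8 of 8 libraries in CPM, yet the log2 fold change after TMM was -0.05 (adjusted p = 0.542), so here too the direction depended on the scaling. SPN were lower, at 135, 163 and 186 (log2 fold change against Glut -0.89, SE 0.09, adjusted p = 4.02e-15). The other glia were far lower and never overlapped the neurons. Microglia stood at 11.2, 30.4 and 47.2 (-3.39 against neurons, SE 0.12, adjusted p = 5.01e-41), and the fold changes were -3.32 in OPC (SE 0.21, adjusted p = 2.71e-24), -3.79 in NFOL (SE 0.29, adjusted p = 4.66e-20) and -2.73 in astrocytes (SE 0.30, adjusted p = 1.28e-12). Within the oligodendrocyte lineage Dnajc6 thus averaged 38.1 ± 21.0 in OPC (n = 8), 19.4 ± 16.8 in NFOL (n = 7) and 276 ± 29.0 in mature oligodendrocytes (SD, n = 8), from 43, 18 and 4437 UMIs.

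Fbxo7, the substrate receptor of the SCF ligase, was raised across the whole oligodendrocyte lineage. The lowest, median and highest libraries had 71.9, 137 and 189 CPM in NFOL, 76.3, 97.3 and 124 in oligodendrocytes and 48.1, 106 and 142 in OPC. In Glut they had 8.14, 10.1 and 13.9 and in GABA 12.0, 14.0 and 20.6. Every library had each of the 3 lineage classes above both neuron classes. The log2 fold change over neurons was 3.20 in NFOL (SE 0.20, adjusted p = 3.77e-25), 3.09 in oligodendrocytes (SE 0.06, adjusted p = 6.68e-58) and 2.64 in OPC (SE 0.17, adjusted p = 4.0e-23). After TMM, OPC were below oligodendrocytes (-0.45, SE 0.14, adjusted p = 0.00505). Their mean CPM were close, at 98.7 in OPC and 100.1 in oligodendrocytes, and the medians ran the other way. That pair was tested with TMM only. The step from NFOL to oligodendrocytes did not pass (adjusted p = 0.637), and OPC were above astrocytes (adjusted p = 4.03e-05). Microglia (18.1 ± 4.29, 124 UMIs) passed the test against neurons by a small margin (0.43, SE 0.14, adjusted p = 0.00451). That call was lost in the absence of any 1 of 6 libraries, all but Ifnar1-/- F1 and F2, with values of 0.22 to 0.31, and with DESeq2 (0.29) or no filter on low counts (0.15).

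Pink1, the mitochondrial damage kinase, was highest in oligodendrocytes, at 31.6, 40.5 and 54.3 CPM in the lowest, median and highest library, and stood at 16.2, 27.1 and 48.9 in microglia. Glut had 10.3, 13.6 and 18.7 and GABA 9.61, 16.9 and 27.1. Both glial classes were above both neuron classes in 8 of 8 libraries, with log2 fold changes of 1.50 (SE 0.08, adjusted p = 4.32e-30) in oligodendrocytes and 0.75 (SE 0.12, adjusted p = 4.15e-08) in microglia. NFOL held 6 Pink1 UMIs in all and were lower than neurons (-1.27, SE 0.50, adjusted p = 0.0353), a call that was lost without Wt M2, Ifnar1-/- F1 or Ifnar1-/- F2, and with DESeq2, library totals or no mouse block. The level in GABA was above that in Glut (0.27, SE 0.07, adjusted p = 0.000747) in 7 of 8 libraries, though not without the mouse block. SPN were above Glut by 0.39 (SE 0.13, adjusted p = 0.0111), or by 0.32 and no longer past the threshold without Ifnar1-/- F2. That call also ended with no filter on low counts or no mouse block.

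Park7, the oxidative stress protein, was highest in microglia, with 28.6, 56.0 and 92.4 CPM, and stood at 23.8, 38.0 and 45.1 in oligodendrocytes. In Glut the values were 12.97, 19.2 and 23.9 and in GABA 20.6, 29.4 and 37.0. Each of the 8 libraries had both glial classes above both neuron classes and GABA above Glut. The log2 fold changes were 1.16 in microglia (SE 0.10, adjusted p = 6.82e-19), 0.71 in oligodendrocytes (SE 0.08, adjusted p = 5.48e-13) and 0.49 in GABA against Glut (SE 0.07, adjusted p = 5.07e-10). Fbxo7 was also higher in GABA than in Glut in 8 of 8 libraries (0.36, SE 0.08, adjusted p = 1.96e-05).

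Uchl1, the ubiquitin hydrolase, was counted in oligodendrocytes and microglia at levels that overlapped those of neurons. Its lowest, median and highest levels were 62.1, 90.4 and 129 CPM in Glut, 60.0, 84.2 and 128 in GABA, 34.7, 96.8 and 131 in oligodendrocytes and 51.0, 163 and 191 in microglia, and all 4 ranges overlapped. Oligodendrocytes differed from neurons by -0.06 (SE 0.08, 95% interval -0.23 to 0.11), and they passed as lower by -0.33 with DESeq2 and by -0.24 with DESeq2's size factors in edgeR. They also passed as lower with no filter on low counts (-0.22), without Wt M2 (-0.24) and without Ifnar1-/- M2 (-0.32). Microglia were higher by 0.32 (SE 0.10, adjusted p = 0.00205), a call that ended without Wt F2, Wt M1, Wt M2, Ifnar1-/- M1 or Ifnar1-/- M2 (0.08 to 0.19). It was also lost with DESeq2 (0.16), its size factors (0.19), no filter on low counts (0.04) or no mouse block (0.38). NFOL (-1.45, SE 0.32, adjusted p = 9.55e-05) and OPC (-0.62, SE 0.21, adjusted p = 0.0139) were lower than neurons, the latter not with library totals (-0.38, adjusted p = 0.176) or without the mouse block. SPN were lower than Glut by -0.26 (adjusted p = 0.0411), which was lost without Wt F1, Ifnar1-/- F2 or Ifnar1-/- M1, and with DESeq2, its size factors, library totals (-0.16) or no mouse block.

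Atp13a2, the lysosomal polyamine exporter, was highest in GABA and microglia. GABA libraries had 44.9, 66.9 and 97.9 CPM and microglia 54.7, 67.4 and 79.8, while Glut had 29.0, 39.2 and 60.6 and oligodendrocytes 16.1, 27.2 and 36.1. GABA was above Glut in 8 of 8 libraries (0.57, SE 0.06, adjusted p = 2.89e-14), and oligodendrocytes were below both neuron classes in 8 of 8 (-0.91, SE 0.08, adjusted p = 3.1e-17). Microglia did not pass against the mean of the neuron classes (0.16, SE 0.09, adjusted p = 0.0801), but passed as higher with library totals (0.28, adjusted p = 0.00257), and the value was -0.12 with no filter on low counts. The gene was also lower in SPN than in Glut (-0.49, SE 0.10, adjusted p = 4.32e-05), in astrocytes than in neurons (-1.73, SE 0.41, adjusted p = 0.000425, 9 UMIs) and in NFOL (-0.95, SE 0.28, adjusted p = 0.00326). The lower level in OPC (-0.54, SE 0.20, adjusted p = 0.0211) was lost without Ifnar1-/- F1 (-0.37) or Ifnar1-/- M1 (-0.49) and with library totals (-0.29).

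**Figure D1:**
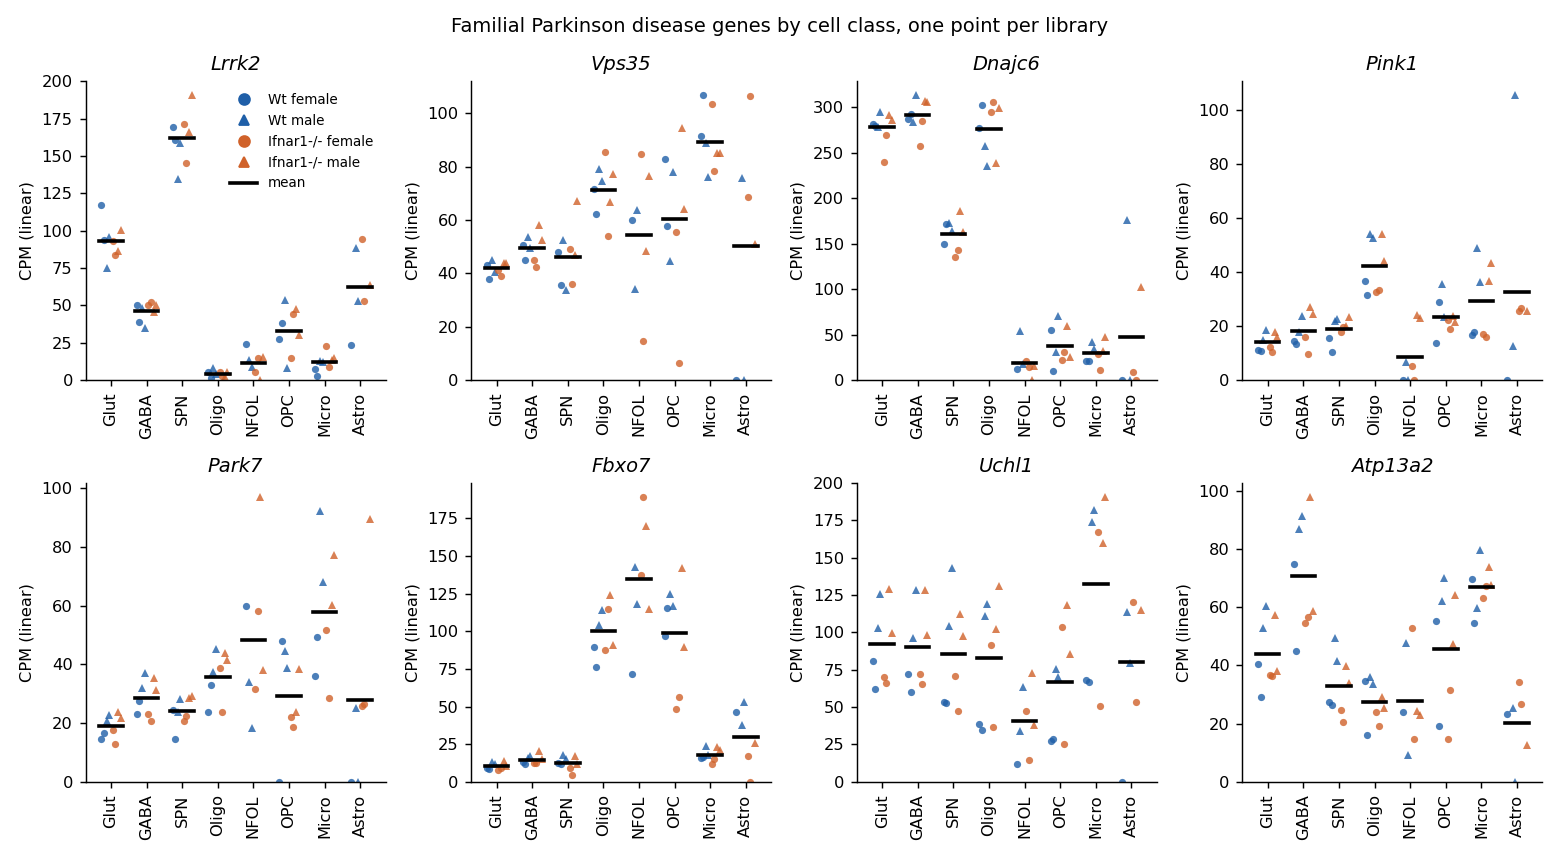
CPM (y axis, linear, from 0) of each gene in each cell class (x axis), with 1 point per library coloured by genotype and shaped by sex, and a bar at the mean. Lrrk2 sits at 4.37 on average in oligodendrocytes and 93.1 in Glut, Fbxo7 at 100.1 and 10.6, and Dnajc6 at 276 and 278.

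In counts, 6 of 8 members differed between oligodendrocytes and neurons, 4 higher and 2 lower, against 81.8% of all 13868 genes tested (44.7% higher, 37.1% lower). Between microglia and neurons 7 differed, 5 higher and 2 lower, against 82.0% of all genes (45.2% higher, 36.7% lower). Between GABA and Glut 5 differed, 4 higher and 1 lower, against 66.0% (36.8% and 29.2%). In OPC 5 differed from neurons, 1 higher and 4 lower, against 41.2% (17.4% and 23.8%), and in NFOL 6 did, 1 higher and 5 lower, against 42.5% (17.0% and 25.5%). In astrocytes 2 were lower, against 32.4% of all genes (11.2% higher, 21.1% lower), and between SPN and Glut 5 differed, 2 higher and 3 lower, against 45.7% (22.0% and 23.7%). Most or many genes differed between cell classes, so these counts are not particular to the members. The median log2 fold change of all genes was not 0 after TMM in several contrasts, at -0.36 in astrocytes, -0.20 in NFOL, 0.15 in microglia, -0.12 in OPC and 0.11 in oligodendrocytes, so member values in those classes are to be read from there. The scaling also moved the split of all calls. The share higher was 34.7% in astrocytes and 42.3% in OPC with TMM and 58.7% and 52.7% with DESeq2, and with library totals it went from 55.8% to 68.3% in GABA against Glut and from 48.2% to 59.6% in SPN against Glut.

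**Figure D2:**
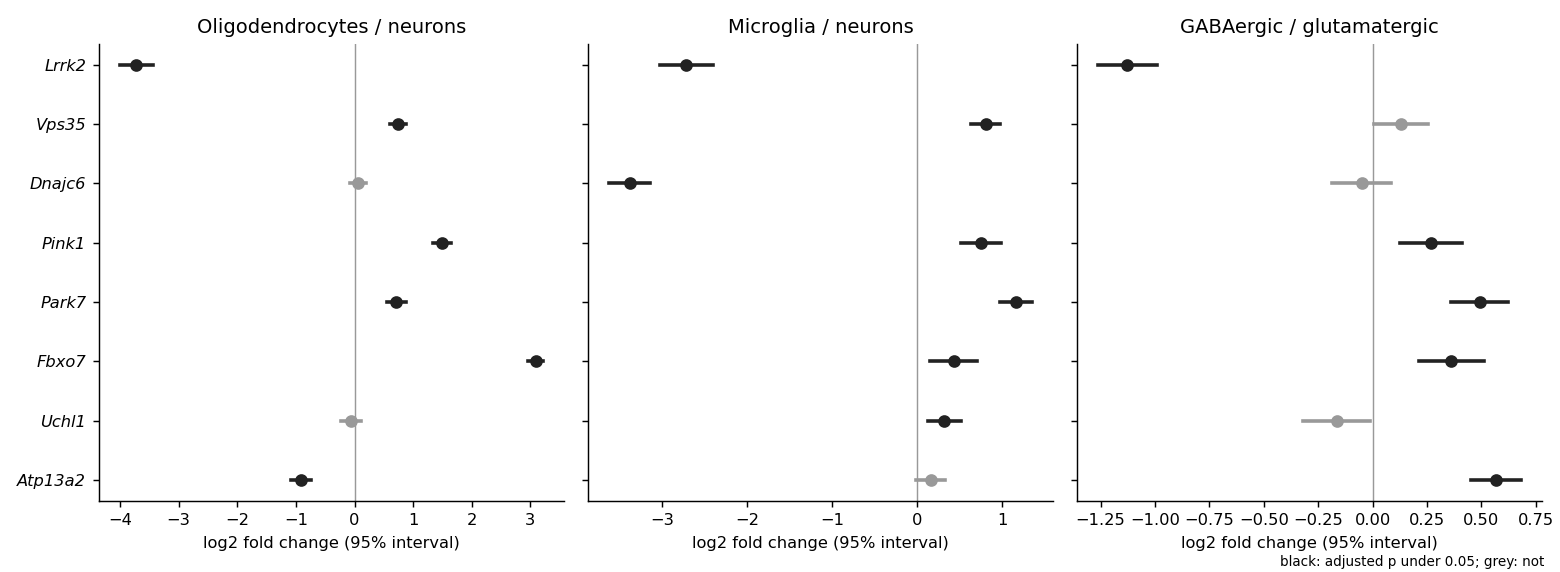
Log2 fold change (x axis) of each gene with its 95% interval in oligodendrocytes and microglia against neurons and in GABA against Glut, from 8 libraries, in black where the adjusted p is under 0.05. The axes differ in range between panels, and Lrrk2 is lower in all 3, at -3.72, -2.72 and -1.13.

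Genes used as a neuron-only reference were also counted in glial nuclei, and these values belong beside the glial levels above. Where that RNA came from was not tested. Of the 8 reference genes, none was at 0 in microglia. Their level there was 7.73% of that in Glut for Rbfox3, 8.20% for Syt1, 11.6% for Camk2a, 26.6% for Snap25, 32.4% for Slc17a7, 51.3% for Stmn2, 119% for Nrgn and 193% for Nefl. In oligodendrocytes the range was 4.79% (Rbfox3) to 129% (Nefl), in OPC 9.995% (Rbfox3) to 120.4% (Nefl), in NFOL 5.35% (Camk2a) to 81.3% (Nefl) and in astrocytes 12.5% (Camk2a) to 135% (Nefl). Lrrk2 was at 12.8% of Glut in microglia and 4.69% in oligodendrocytes, Dnajc6 at 10.6% in microglia and Uchl1 at 144%. The Lrrk2 level in oligodendrocytes was below all 8 neuron-only genes. In microglia Lrrk2 lay between Camk2a and Snap25, Dnajc6 between Syt1 and Camk2a, and Uchl1 between Nrgn and Nefl. Whether these levels come from the glia themselves was not tested. The Dnajc6 level in oligodendrocytes, 99.4% of that in Glut, was above 7 of the 8 neuron-only genes and below Nefl. The part of neuronal RNA in the glial levels of the members was not tested.

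Among glutamatergic subtypes, Lrrk2 varied with cortical layer. Of these it was highest in layer 4 intratelencephalic (IT) neurons, with 117, 146 and 198 CPM in the lowest, median and highest library, above the 84.0, 106 and 136 of L2/3 IT (adjusted p = 9.15e-13). L5 extratelencephalic neurons (L5 ET, 101 ± 14.2) and L5 IT (93.2 ± 12.9) followed, and L5 IT was above L6 IT (64.9 ± 8.68, adjusted p = 1.79e-09). Corticothalamic (L6 CT, 64.8), Car3 (56.1), near-projecting (L5/6 NP, 50.1) and L6b (44.8 ± 6.12) neurons followed in steps that did not pass. The L4 IT and L6b libraries did not overlap. Among interneurons Vip cells led (67.8, 85.8 and 110 CPM), above Lamp5 (60.9 ± 10.7, adjusted p = 5.21e-06), which were above Pvalb (35.6 ± 6.43, adjusted p = 2.14e-09), while the step from Pvalb to Sst (35.6 ± 7.53) did not pass. In the striatal class, D2 neurons (186.5 ± 51.4) exceeded D1 neurons (129 ± 26.5) by 0.56 on the log2 scale (SE 0.14, adjusted p = 0.00339), and their libraries overlapped. Without the mouse as a block this call was lost.

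Dnajc6 was highest among interneurons in Lamp5 cells, at 318, 402 and 449 CPM. Pvalb (299 ± 26.1, adjusted p = 1.17e-08 below Lamp5), Sst (264 ± 11.8, adjusted p = 0.00204 below Pvalb) and Vip (227 ± 25.7, adjusted p = 0.0197 below Sst) followed. This order was not that of Lrrk2, for which Vip came first. In glutamatergic subtypes Dnajc6 went from 328 ± 23.4 in L6b and 322 ± 18.0 in L6 CT down to 229 ± 12.7 in L2/3 IT, in steps of which none passed the test between neighbours. The L6b libraries (lowest 305) did not overlap those of L2/3 IT (highest 247).

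Uchl1 and Atp13a2 also differed among subtypes. Uchl1 was highest in Car3 neurons (129 ± 32.6), above L5/6 NP (111 ± 27.6, adjusted p = 0.00575), and lowest in L4 IT (78.7 ± 23.8), below L5 ET (87.5 ± 20.5, adjusted p = 0.0165). Among interneurons it was highest in Sst (110.3 ± 31.9), above Vip (94.0 ± 35.7, adjusted p = 0.0476), and lowest in Pvalb (71.9 ± 23.5), below Lamp5 (89.0 ± 18.9, adjusted p = 0.000772). All of these ranges overlapped, since the spread between libraries was wide. Atp13a2 was highest in L5/6 NP (62.1 ± 11.9) and L6b (61.2 ± 17.6), the latter above L6 CT (48.4 ± 12.2, adjusted p = 0.000242), and lowest in L2/3 IT (35.9 ± 8.85). In interneurons Pvalb (76.0 ± 19.8) and Sst (74.3 ± 20.5) were above Lamp5 (61.6 ± 21.2, adjusted p = 0.000748 for Sst against Lamp5) and Vip (56.8 ± 17.5).

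Of the other members, Pink1 spanned 12.7 to 19.3 CPM over the glutamatergic subtype means and went from 24.5 ± 8.00 in Vip to 15.6 ± 6.07 in Pvalb, and Vps35 went from 57.9 ± 8.54 in Lamp5 to 45.4 ± 8.41 in Pvalb. Park7 (16.8 to 20.5 over glutamatergic and 26.9 to 30.2 over GABAergic subtype means) and Fbxo7 (9.35 to 11.6 and 12.8 to 16.8) did not pass in either class. In all, 5 members differed among glutamatergic subtypes, namely Lrrk2 (adjusted p = 9.75e-43), Dnajc6 (1.91e-19), Atp13a2 (7.65e-13), Uchl1 (2.19e-10) and Pink1 (0.0104), against 82.3% of 14017 genes. Among GABAergic subtypes 6 did, those 5 and Vps35 (adjusted p = 0.0145), against 67.8% of 11345 genes. Of the 4 members tested between D1 and D2 neurons 1 passed, Lrrk2, against 10.9% of 4587 genes.

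**Figure D3:**
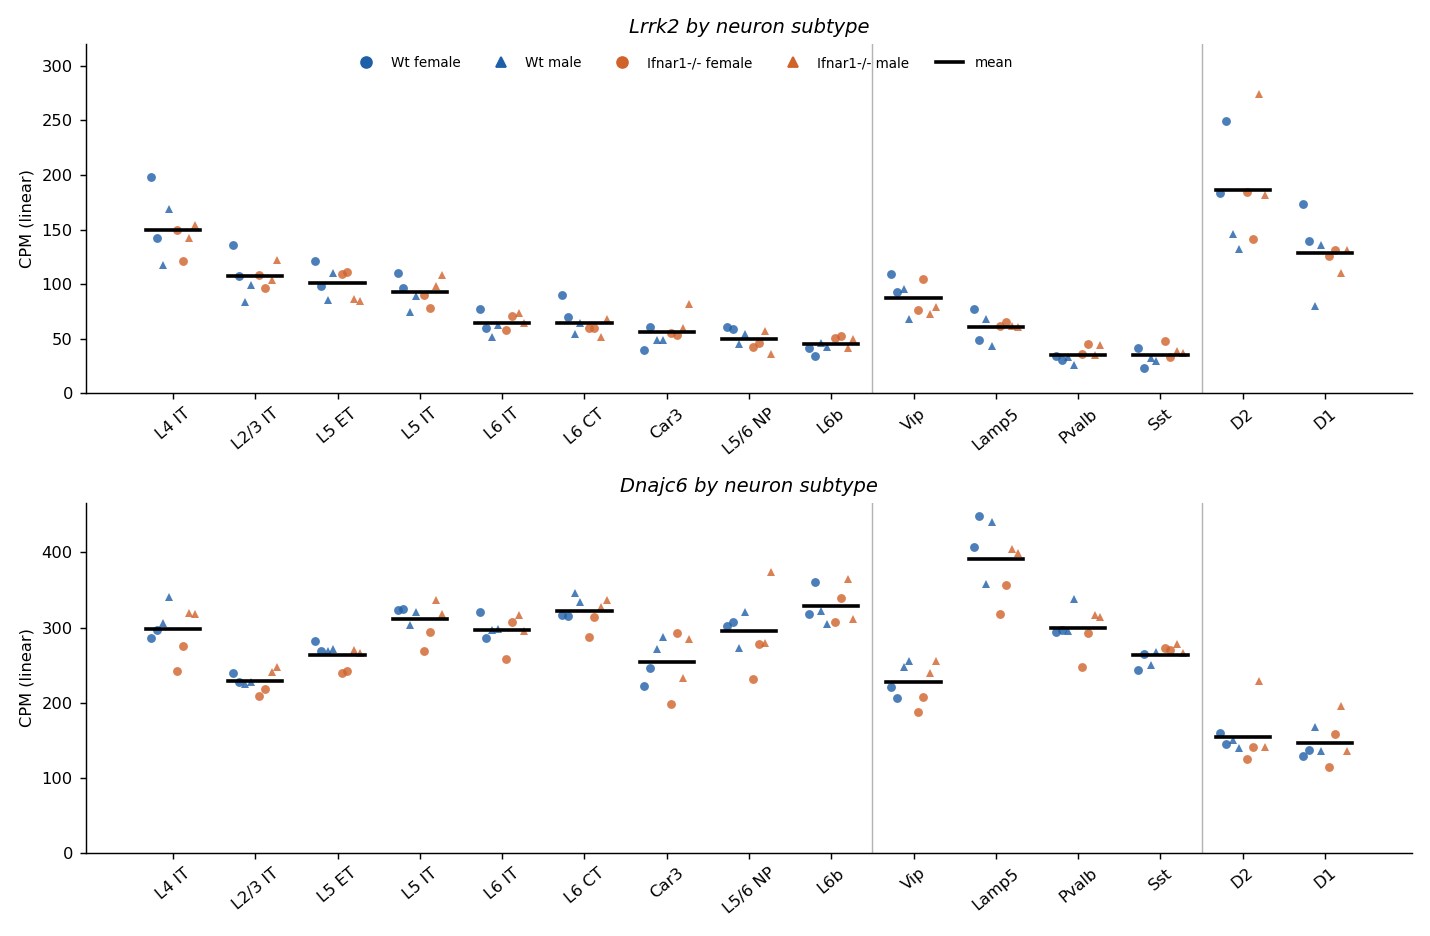
CPM (y axis, linear, from 0) of Lrrk2 and Dnajc6 in 15 neuron subtypes (x axis, grouped as glutamatergic, GABAergic and striatal), with 1 point per library and a bar at the mean. Lrrk2 falls from 149 in L4 IT to 44.8 in L6b, and Dnajc6 is highest in Lamp5 at 391.

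The comparison of genotypes gave no call for any of the 8 genes. Over all nuclei Lrrk2 stood at 95.2, 81.1, 67.3 and 74.0 CPM in Wt F1, F2, M1 and M2 and at 83.1, 68.7, 74.2 and 85.0 in the same order of Ifnar1-/- mice. Dnajc6 stood at 272, 273, 269 and 284 in Wt and 237, 270.4, 287 and 276 in Ifnar1-/-. The genotypes overlapped for both.
The means of the other 6 were also close, at 46.0 ± 3.86 in Wt and 46.2 ± 3.08 in Ifnar1-/- for Vps35, 16.3 ± 4.71 and 16.9 ± 4.54 for Pink1, 23.0 ± 5.36 and 22.9 ± 5.31 for Park7, 16.1 ± 3.80 and 16.3 ± 2.38 for Fbxo7, 94.0 ± 30.3 and 94.8 ± 29.5 for Uchl1 and 51.2 ± 15.4 and 46.7 ± 11.8 for Atp13a2 (SD, n = 4 each). The log2 fold changes over all nuclei ran from -0.12 (Atp13a2) to 0.06 (Pink1), and their 95% intervals from -0.65 (Atp13a2) to 0.62 (Uchl1) at the widest. The interval was far narrower for Dnajc6 (-0.18 to 0.12) and Vps35 (-0.18 to 0.21). These fits held no term for sex, whose differences are part of their spread, and with sex as a covariate 0 members were called as well. Of all 19943 genes, edgeR called 0.0501% over all nuclei.

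Within classes, the members gave 50 tests over all nuclei, Glut, GABA, oligodendrocytes, microglia, SPN and OPC, and edgeR called 0 of them, with 0 at an unadjusted p under 0.05. The smallest unadjusted p was 0.0864, for Fbxo7 in OPC (-0.59, adjusted p = 1.00), and the log2 fold changes ran from -0.59 to 0.61. The calls over all genes were 0.0594% in Glut, 0.0273% in GABA, 0.0631% in oligodendrocytes, 0.105% in microglia, 0.0419% in SPN and 0.0% in OPC, where only 2 members had enough counts. In astrocytes no member did. In DESeq2 the members also gave 0 calls. For 0 of 8 members did the genotypes separate without overlap over all nuclei, Glut, GABA, oligodendrocytes, microglia or SPN, against 1.14%, 1.51%, 1.66%, 1.57%, 1.63% and 1.73% of all genes. The bounds over the 8 members reached farther in glia than in Glut, from -1.25 to 1.21 in oligodendrocytes and from -0.87 to 1.61 in microglia.

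Over 15 neuron subtypes, 0 of 108 member tests were called, against 0.0452% of all gene by subtype tests, and 1 had an unadjusted p under 0.05. It was Lrrk2 in Pvalb interneurons, where 213 of all 12037 genes tested had an unadjusted p under 0.05. Lrrk2 stood there at 33.9, 30.6, 33.7 and 25.7 CPM in Wt and 36.3, 45.1, 35.5 and 44.0 in Ifnar1-/-. The 4 Ifnar1-/- libraries were all above the 4 of Wt. This case was picked by the smallest unadjusted p of the 108 tests. The share of all genes that separated in Pvalb was not counted, so the separation cannot be weighed. The log2 fold change was 0.38 (SE 0.15, 95% interval 0.04 to 0.73, unadjusted p = 0.0326 and adjusted p = 1.00 in edgeR), so it did not hold after adjustment. The effect of genotype did not differ between sexes for any member in all nuclei, Glut, GABA, oligodendrocytes or microglia, with 0.0% of all genes called in each.

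**Figure D4:**
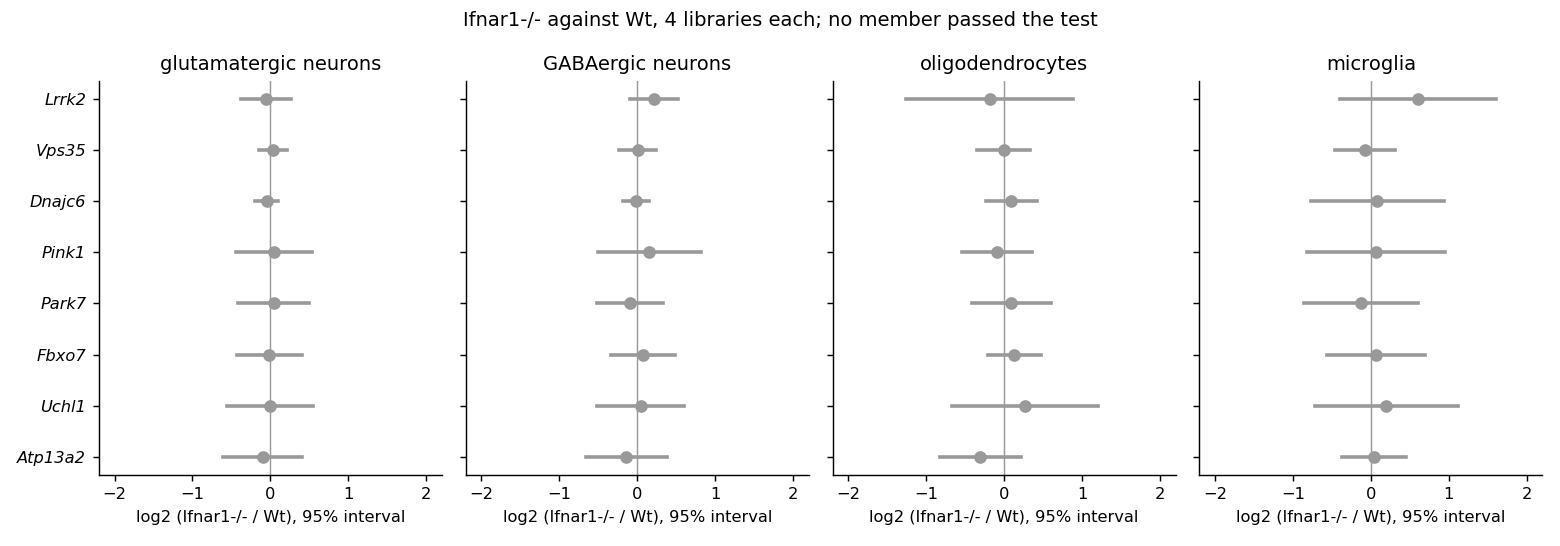
Log2 fold change of Ifnar1-/- against Wt (x axis) with 95% intervals for the 8 genes in 4 cell classes, 4 libraries per genotype. Every interval includes 0, and the lowest and highest bounds reach farther in oligodendrocytes and microglia than in Glut.

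Sex was the larger source of variation between libraries. Over all nuclei, where a different mix of cells and a different level per cell cannot be told apart, Uchl1 stood at 78.7, 61.0, 74.5 and 67.7 CPM in the females (Wt F1, F2 and Ifnar1-/- F1, F2) and at 106, 130, 131 and 105 in the males in the same order. Pink1 stood at 12.97, 12.0, 13.9 and 12.1 in females and 18.4, 22.0, 21.3 and 20.2 in males, and Park7 at 17.8, 19.5, 20.3 and 16.7 against 25.0, 29.6, 27.8 and 26.9. All males were above all females for these 3 genes. Fbxo7 also separated, at 14.0, 11.8, 14.0 and 14.6 against 19.1, 19.5, 18.9 and 17.7, and Atp13a2 did not, at 47.5, 31.5, 39.2 and 41.5 against 58.6, 67.2, 64.3 and 41.7.

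These 5 members passed the test of males against females with genotype in the model, by 0.71 for Uchl1 (SE 0.11, adjusted p = 0.00218), 0.64 for Pink1 (SE 0.10, adjusted p = 0.00248), 0.51 for Park7 (SE 0.11, adjusted p = 0.0086), 0.50 for Atp13a2 (SE 0.16, adjusted p = 0.0428) and 0.43 for Fbxo7 (SE 0.09, adjusted p = 0.00931). The call of Atp13a2 was lost without any 1 of 6 libraries, all but Wt F1 and Ifnar1-/- M2 (adjusted p 0.0649 to 0.137). Lrrk2 (-0.16, adjusted p = 0.322), Vps35 (0.10, adjusted p = 0.364) and Dnajc6 (0.05, adjusted p = 0.588) did not pass. All 5 calls were higher in males, against 27.2% of all genes called and 15.3% called higher. Within each genotype the male to female difference of log2 means was 0.76 in Wt and 0.74 in Ifnar1-/- for Uchl1, 0.70 and 0.67 for Pink1, 0.55 and 0.56 for Park7, 0.58 and 0.36 for Fbxo7 and 0.67 and 0.40 for Atp13a2. Sex cannot be told apart from any handling that the libraries of a sex shared.

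In single classes the same members recurred. In Glut the 5 genes passed again, by 0.65 (Uchl1), 0.54 (Pink1), 0.49 (Atp13a2), 0.48 (Park7) and 0.44 (Fbxo7), against 30.4% of all genes (16.7% higher), with Atp13a2 and Fbxo7 both lost without Wt F2 or Ifnar1-/- M1 (3 calls left), and Atp13a2 also without Wt M1 or Wt M2. In GABA 3 passed, by 0.71 (Pink1), 0.67 (Uchl1) and 0.45 (Park7), against 25.5% (14.4% higher), and only Uchl1 was left without Wt M2, while 5 passed without Ifnar1-/- M2. With library totals in place of TMM, 5 passed in GABA, and the share of all calls that were higher in males went from 56.7% to 71.8% there and from 58.5% to 78.3% in oligodendrocytes. The sexes did not overlap for Pink1, Park7, Uchl1 and Fbxo7 over all nuclei, in Glut and in GABA, against 28.0%, 28.7% and 25.0% of all genes.

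In oligodendrocytes and microglia Uchl1 and Pink1 were both higher in males. Oligodendrocyte levels of Uchl1 were 38.7, 34.7, 91.5 and 36.9 CPM in females and 111, 119, 102 and 131 in males, a log2 fold change of 1.12 (SE 0.23, adjusted p = 0.00407). Its microglial levels were 68.0, 67.0, 167 and 51.0 in females and 174, 182, 160.0 and 191 in males (1.23, SE 0.24, adjusted p = 0.00302). Of the females only Ifnar1-/- F1 came near the males, and in microglia it stood among them, from 29 UMIs. Pink1 stood at 16.8, 17.8, 17.3 and 16.2 in female and 48.9, 36.3, 36.9 and 43.3 in male microglia, with no overlap (1.25, SE 0.23, adjusted p = 0.00223), and was also higher in male oligodendrocytes (0.49, adjusted p = 0.0201), a call lost without Wt F2, Wt M2 or Ifnar1-/- M1, and with DESeq2 or clustering resolution 2. Park7 was higher in male microglia (0.93, SE 0.21, adjusted p = 0.00756), a call lost without Ifnar1-/- F2, which left 2 members called in microglia.

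The 8 neuron-only genes moved in the same direction in these classes. Their summed level in microglia was 707, 659, 1185 and 473 CPM in females and 1520, 1322, 1292 and 1817 in males. In oligodendrocytes it was 399, 418, 741 and 304 in females and 960, 785, 778 and 1194 in males. Here too Ifnar1-/- F1 was the highest female in both classes, while in Glut the sum varied only from 6351 to 6921. In microglia 6 of the 8 passed as higher in males, from 0.92 (Slc17a7) to 1.85 (Nrgn), and Rbfox3 (0.86) and Syt1 (0.56) did not. In oligodendrocytes 6 of 8 passed as well, and in Glut Nefl (0.84), Nrgn (0.74) and Slc17a7 (0.44) were higher and Rbfox3 (-0.29) lower in males. In GABA, Slc17a7, the vesicular glutamate transporter of glutamatergic neurons, was higher in males by 0.93, Nefl by 0.95 and Nrgn by 1.88, Syt1 was lower (-0.20), and Camk2a (-0.01), Snap25 (0.07), Stmn2 (0.12) and Rbfox3 (-0.20) did not pass. Their part in the sex differences of the members was not tested.

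The sex difference of Dnajc6 passed the test in opposite directions in microglia and oligodendrocytes. In microglia it stood at 21.0, 20.5, 28.8 and 11.2 CPM in females and 41.7, 33.7, 32.0 and 47.2 in males, without overlap (1.04, SE 0.27, adjusted p = 0.0167). In oligodendrocytes it stood at 277, 302, 295 and 306 in females and 257, 236, 238 and 299 in males, with overlap (-0.31, SE 0.10, adjusted p = 0.0397). The microglial levels are in the range of the neuron-only genes and rest on 5 to 60 UMIs a library. The microglial call was lost without Ifnar1-/- F2 and with doublets kept (0.66, adjusted p = 0.0740). The oligodendrocyte call was lost without any 1 of 6 libraries, all but Ifnar1-/- F1 and Ifnar1-/- M2, and with DESeq2, library totals (-0.19), no filter on low counts, clustering resolution 2 or doublets kept.

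The difference of the sex effects was tested directly. For Dnajc6 it was -0.36 between oligodendrocytes and Glut (SE 0.10, adjusted p = 0.0347, against 4.03% of genes called), 0.99 between microglia and Glut (SE 0.23, adjusted p = 0.0076, against 5.03%) and 1.35 between microglia and oligodendrocytes (SE 0.23, adjusted p = 0.00129, against 1.11%). The last was kept without any 1 library. The first was lost in 7 of 8 such fits, and the second without Ifnar1-/- F2 (0.80, adjusted p = 0.0779). For Uchl1 the differences of 0.49 (oligodendrocytes) and 0.63 (microglia) from Glut did not pass (adjusted p = 0.122 and 0.0701). Without Ifnar1-/- F1 they were 0.97 and 0.79 and did, as did the microglial one without Ifnar1-/- M1 (0.73). No member differed in its sex effect between GABA and Glut, where 0.119% of genes did. In all, 3 members were called for sex in oligodendrocytes, 2 of them higher, against 22.8% of genes (13.3% higher), and 4 in microglia, all higher, against 19.7% (11.8% higher). The sexes did not overlap for Pink1 and Uchl1 in oligodendrocytes (23.1% of genes), for Pink1, Park7, Dnajc6 and Fbxo7 in microglia (19.7%) and for Pink1, Uchl1 and Atp13a2 in SPN (18.2%).

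**Figure D5:**
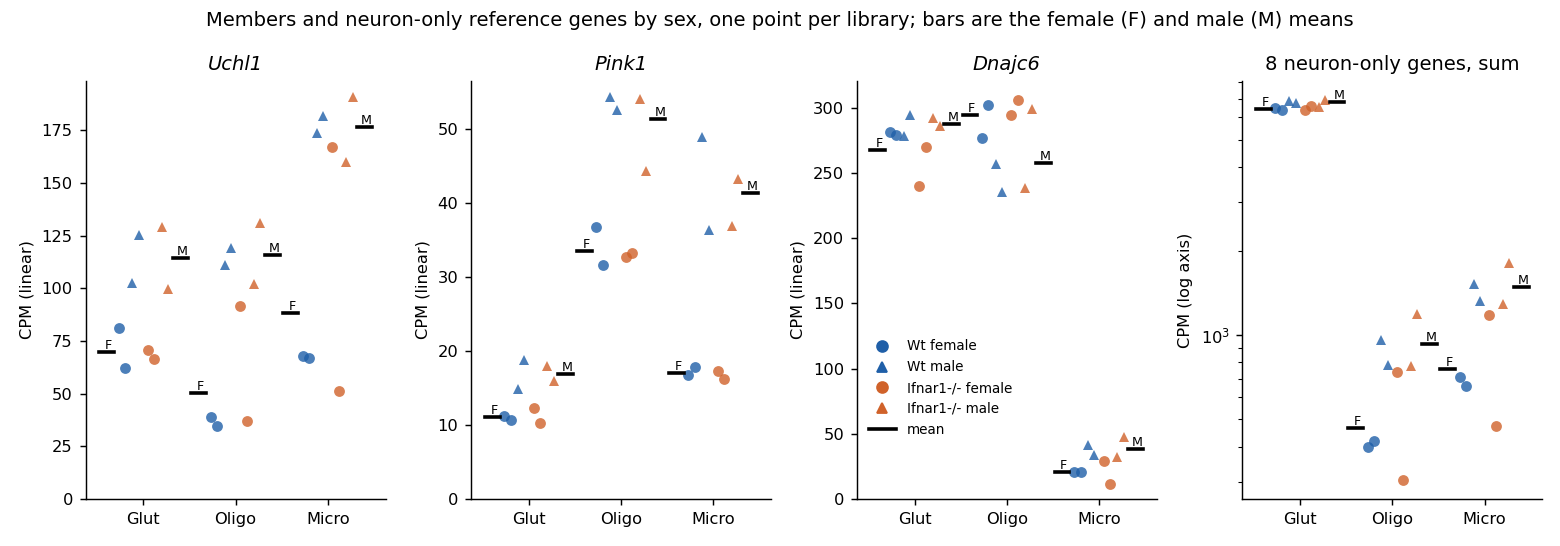
CPM of Uchl1, Pink1 and Dnajc6 (linear axes from 0) and of 8 neuron-only genes summed (log axis) in Glut, oligodendrocytes and microglia, with 1 point per library and bars at the female (F) and male (M) means. Uchl1 in Ifnar1-/- F1 and the neuron-only sum in the same library are the highest of the females in both glial classes.

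Genes that work with the members were taken as 8 lists of 137 genes, of which 129 were tested between classes. In oligodendrocytes 83 were higher and 26 lower than in neurons (median 0.44 on the log2 scale against 0.11 over all genes), and in microglia 86 were higher and 23 lower (median 0.58 against 0.15). Between GABA and Glut 51 were higher and 20 lower (median 0.11 against 0.06), where 36.8% of all genes were higher and 29.2% lower. Of all genes 44.7% were higher and 37.1% lower in oligodendrocytes, and 45.2% and 36.7% in microglia. Of the retromer list 13 of 16 were higher in oligodendrocytes and 12 of 16 in microglia. Tbc1d5, which regulates the GTPase RAB7 at the retromer, was higher by 2.25 in oligodendrocytes and 1.84 in microglia, and the sorting nexins Snx1 (1.59 in oligodendrocytes) and Snx5 (2.70 in microglia) were also higher. Snx27 was lower in oligodendrocytes (-0.14, lost without Ifnar1-/- F2) and Washc5 in microglia (-0.37, lost with library totals).

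For the next lists, the shares of all genes were 44.7% higher and 37.1% lower in oligodendrocytes and 45.2% and 36.7% in microglia. Of the Rab list, in oligodendrocytes 7 of 16 were higher and 6 lower, close to those shares. Rab10 (1.11) and Rab8b (1.00) were up there. Rab3c (-3.07), a Rab of synaptic vesicles, and the Rab phosphatase Ppm1h (-1.46) were down. In microglia 12 were higher and 3 lower, led by the paralog Lrrk1 at 6.94. The clathrin list was split as well, 9 up and 5 down of 15 in oligodendrocytes and 8 up and 7 down in microglia. The clathrin adaptor Picalm was higher in both (2.35 and 3.34), while the synaptic endocytosis genes Sh3gl2 (-1.52) and Dnm1 (-1.35) were lower in oligodendrocytes and Amph (-3.69) and Dnm3 (-3.28) in microglia. Of the mitophagy list, with Pink1, 15 of 22 were higher and 3 lower in oligodendrocytes, among them the mitophagy receptors Bnip3l (1.77) and Fundc1 (1.59). In microglia 11 were higher and 7 lower, with the kinase Tbk1 up (1.45) and the autophagy receptor Optn down (-2.43).

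The remaining lists had more genes higher in glia than lower, and so did all genes (44.7% against 37.1% in oligodendrocytes, 45.2% against 36.7% in microglia). Of the SCF and proteasome list 14 of 18 were higher and 2 lower in oligodendrocytes, led by the proteasome subunits Psmb5 (1.10) and Psmb6 (1.05), and 12 were higher and 1 lower in microglia, led by the ligase scaffold Cul1 (1.17). Of the list around Uchl1 4 of 7 were higher and 1 lower in oligodendrocytes and 5 and 1 in microglia, with the related hydrolase Uchl3 at -0.56 and -0.64. Of the lysosomal list around Atp13a2 8 of 17 were higher and 6 lower in oligodendrocytes, close to the shares of all genes. Lamp1 was up there by 2.79 and the related ATPase Atp13a4 down by -3.37. In microglia 11 were higher and 2 lower, led by the lysosomal protease Ctsd (5.20). Of the oxidative stress list around Park7 13 of 18 were higher and 2 lower in oligodendrocytes and 15 and 1 in microglia, with the stress regulator Nfe2l2 at 3.04 and 5.18. For genotype, 0 of these genes were called in all nuclei, Glut, GABA, oligodendrocytes or microglia by edgeR, with 1, 1, 1, 3 and 1 at an unadjusted p under 0.05. The genes of the lists tested there numbered 134, 133, 129, 125 and 121. Over all genes the unadjusted counts in the same order were 291 of 19943, 328 of 18528, 268 of 14647, 215 of 11094 and 148 of 9558.

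The genes whose levels ran most like each member over the 20 classes and subtypes are given as a description, by Pearson's r over log2 levels among 11704 genes. These points share libraries and depth. For Fbxo7 they were Bcas1 (0.985), Olig2 (0.978) and Plxnb3 (0.974), and Bcas1 is a marker that named NFOL here. Dnajc6 ran with Spock1 (0.944), Efcab5 (0.939) and Polq (0.938). Prelid3a (0.896) was among the 3 genes closest to Lrrk2. For Vps35 the closest were Mrpl10 (0.959), Use1 (0.959) and Rnf167 (0.953), and for Park7 Fkbp15 (0.954), Frg1 (0.942) and Rps20 (0.939). The leading gene was Psma1 (0.913) for Atp13a2, Cab39l (0.899) for Pink1 and Mmaa (0.899) for Uchl1. Between members, Park7 and Vps35 were most alike (0.827), followed by Uchl1 and Dnajc6 (0.687), and Lrrk2 ran against Fbxo7 (-0.784) and Park7 (-0.732).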

How the data were processed

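Nuclei of 8 mouse cortices were profiled by droplet snRNA-seq (10x Genomics, 3′ chemistry), with 4 libraries per genotype. Per the labels, the authors aligned reads to mm10 with Cell Ranger, counting unspliced transcripts too, and analysed them with Seurat 3.1.5. The deposited values are raw UMI counts per gene and barcode, 31053 genes by 56780 barcodes, and were used as deposited.

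Nuclei with 200 to 6000 genes, over 1000 UMIs and under 10% mitochondrial UMIs were kept (54341), and 2262 Scrublet doublets were removed, leaving 52079. They were clustered in scanpy 1.11.5 (Python 3.11.15) on 3000 variable genes without the members, 40 principal components and 20 neighbours at resolution 1, giving 42 clusters, named from marker lists. Counts were summed per mouse and class or subtype (at least 10 nuclei), and tested in R 4.3.3 with edgeR 4.0.16 (TMM, filterByExpr, quasi-likelihood F test, Benjamini-Hochberg over all genes). Genotype was fitted alone, sex with genotype, and classes and subtypes with the mouse as a block. The fit of sex differences between classes, and the NFOL contrast, were added after the data were seen. The edgeR script was tested on simulated data.

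Members and gene lists were chosen with earlier results of these data known. All members are named throughout. Of each partner list at most 2 called genes per direction with the largest fold change were named, and of each member's pattern the 3 genes with the highest correlation (at least 20 CPM in 1 class or subtype, 1 added before logs), of which some are not reported here. Mouse numbers are shared by the genotypes in the labels. Deviations of same-numbered mice from genotype means correlated (r 0.528 to 0.747), but those from genotype and sex means did not (-0.228 to -0.147). With 2 mice per genotype and sex, both numbers of a sex must give the same r. These values are therefore too few to show whether the numbers pair mice beyond sex. Alternatives were DESeq2 1.42.0, its size factors in edgeR, library totals, no filter on low counts, clustering resolution 2, doublets kept, no mouse block, no genotype term, sex as a covariate, a replicate block, and leaving out each library.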

Additional observations from a re-analysis of the deposited data

Results flagged for a closer look

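Among 232 groups of 4 or 8 libraries checked, 9 held a library far from the others by Dixon's test, which chance gives in about 1 in 20 groups. Atp13a2 in Ifnar1-/- M1 accounted for 3 of them, at 64.3 CPM over all nuclei (39.2 to 41.7 in the other 3 Ifnar1-/- libraries), 57.4 in Glut (36.3 to 37.9) and 97.9 in GABA (54.6 to 58.8). In Wt oligodendrocytes Atp13a2 was low in Wt F2, at 16.1 from 26 UMIs (33.7 to 36.1 in the others).

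Dnajc6 was high in Wt M2 in Glut, at 295 against 279 to 281, low in Ifnar1-/- M1 in oligodendrocytes, at 238 against 295 to 306, and high in the same library in D2 neurons, at 229 from 20 UMIs against 125 to 159 in the other 7. Lrrk2 stood at 90.3 in L6 CT neurons of Wt F1 (51.8 to 69.9 in the other 7), and Vps35 at 53.5 in L6 IT neurons of Wt M1 (39.4 to 45.7).

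The male to female difference of Dnajc6 differed between classes by the test of the difference itself, by -0.36 on the log2 scale between oligodendrocytes and Glut, 0.99 between microglia and Glut and 1.35 between microglia and oligodendrocytes. The part of neuronal RNA in the microglial values was not tested.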

How the results depend on the processing

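The genotype comparisons gave 0 member calls under every alternative run, the replicate block among them (0 members called with the replicate block in each class). Other counts of calls moved as follows. With library totals, sex calls in GABA went from 3 to 5, and calls in OPC from 5 to 3. With DESeq2, and with clustering resolution 2, sex calls in oligodendrocytes went from 3 to 1. Without the mouse block, calls between SPN and Glut went from 5 to 3, among glutamatergic subtypes from 5 to 3 and between D1 and D2 neurons from 1 to 0, and partner genes called between GABA and Glut from 71 to 27. The cause was not tested.

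With 1 library left out, sex calls ranged from 4 to 5 over all nuclei, 3 to 5 in Glut, 1 to 5 in GABA, 1 to 3 in oligodendrocytes and 2 to 4 in microglia. Class calls ranged from 5 to 6 in GABA against Glut, 6 to 7 in oligodendrocytes, 5 to 7 in microglia, 4 to 5 in OPC, 5 to 6 in NFOL and 3 to 5 in SPN, lowest for SPN without Ifnar1-/- F2. No called value changed sign. Depth limits the glia most, where Lrrk2 rested on 75 UMIs in oligodendrocytes and 73 in microglia.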
